A study of Mus musculus with 6 samples.

Results

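Cytosolic ribosomal proteins are the protein components of the ribosome that translates nuclear-encoded mRNA. Those of the large subunit (Rpl) surround the peptide-bond-forming centre and the exit tunnel, those of the small subunit (Rps) surround the decoding centre, and the P stalk (Rplp) recruits the translation factors. Their mRNAs begin with a run of pyrimidines that places their translation under control of the kinase mTOR, and loss of one copy of a ribosomal protein gene impairs red cell formation in Diamond-Blackfan anaemia. The genes described here are those whose probe set carries a single gene symbol of the form Rpl, Rps or Rplp followed by a number, without S6 kinases and pseudogenes. They number 48 of the 18193 genes measured. Rps4l, which RefSeq classes as a transcribed pseudogene, was left out.

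Common myeloid progenitors (CMP), marrow cells that give rise to granulocytes, monocytes, megakaryocytes and red cells, were isolated from C57BL6 mice. With H2-DCFDA, which becomes fluorescent once oxidised, a fraction low and a fraction high in reactive oxygen species (ROS) were sorted, each holding between 15% and 20% of the CMP. RNA of 3 low-ROS CMP and 3 high-ROS CMP samples was amplified and read on 6 one-colour arrays. The study asks how ROS bear on the step from CMP to progenitors of megakaryocytes and red cells. Every sample is wild-type as far as the labels say, with no other allele or agent named, and the labels give neither age nor the surface gate. Nor do they state whether replicates are separate mice, so the p-values here cover the spread among the arrays, possibly a technical one, and the number of arrays limits the precision.

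Signals are the deposited linear values, and differences are taken on log2(signal + 16), high-ROS minus low-ROS. A second group of 31 symbols of the same form, among them Rpl5, Rpl35a and Rplp1, lies only on probe sets that carry several gene symbols and is not part of the 48. Many ribosomal protein genes have near-identical processed copies in the genome. Of the probe sets that stand for the 48 genes, 34 (70.8%) carry an ending that marks probes matching several transcripts or other sequences, compared with 21.1% over all genes. The 17 that end in _a_at may match several transcripts of the same gene only, while 16 end in _x_at and 1 in _s_at. A signal may therefore include copies of the gene, chiefly under the latter endings.

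Starts of the genes were taken from RefSeq (GRCm38.p6), where 43 of the 48 genes have an entry. A start with C as its first base and at least 5 pyrimidines in a row was found for 8 of the 43 genes (18.6%), compared with 3.01% of the 27025 genes of the table. They are shown because this run is the element through which translation of ribosomal protein mRNA is controlled. Each line gives 15 bases before and 15 bases from the annotated start, with the uninterrupted pyrimidine run that holds the start in capitals.
Rpl14 (chr9:120571502-120571531, plus strand): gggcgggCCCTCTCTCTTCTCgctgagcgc
Rpl35 (chr2:39005117-39005146, minus strand): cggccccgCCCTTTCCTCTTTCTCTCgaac
Rpl38 (chr11:114668565-114668594, plus strand): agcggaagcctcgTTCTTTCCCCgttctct
Rplp2 (chr7:141447636-141447665, plus strand): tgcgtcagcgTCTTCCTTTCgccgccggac
Rps10 (chr17:27635230-27635259, minus strand): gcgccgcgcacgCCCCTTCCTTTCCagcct
Rps18 (chr17:33955651-33955680, minus strand): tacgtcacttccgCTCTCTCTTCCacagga
Rps27 (chr3:90213634-90213663, minus strand): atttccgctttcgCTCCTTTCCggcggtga
Rps6 (chr4:86857353-86857382, minus strand): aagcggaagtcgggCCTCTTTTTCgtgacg
The annotated start can differ from the base at which transcription begins, so a start without such a run says only that these letters are not at this position.

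The window of 250 bases before and 50 bases from the start was also searched on both strands for CCGGAAG, the core bound by ETS factors such as Gabpa. It was found in 20 of the 43 genes (46.5%), compared with 9.93% of all genes of the table. Read from the opposite strand it holds 5 pyrimidines in a row and can overlap a pyrimidine run. Examples from the 60 bases before the start, with the match in capitals (on the opposite strand in Rps7), are shown because Gabpa was among the regulators measured.
Rpl38 (chr11:114668520-114668579, plus strand): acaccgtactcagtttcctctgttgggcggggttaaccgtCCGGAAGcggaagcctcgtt
Rps10 (chr17:27635245-27635304, minus strand): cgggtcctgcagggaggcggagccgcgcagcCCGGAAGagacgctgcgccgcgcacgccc
Rps7 (chr12:28635954-28636013, minus strand): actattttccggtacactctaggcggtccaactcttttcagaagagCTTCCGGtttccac
Matches are a description of these letters and show no binding.

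Markers of the labelled and of other cells were read on the same arrays. Summed signals of 7 CMP markers, among them Kit, Cd34 and Mpo, ran from 13236 to 13767 in low-ROS and from 12617 to 14514 in high-ROS CMP. Mpo and Myb make up most of that sum. Of the 7, 4 had higher and 3 lower means in high-ROS CMP. The largest rise was that of Cd34, with group means of 417 and 584 and overlapping groups (log2 difference 0.40, adjusted p = 0.733, limma). Gata2, a CMP transcription factor, had lower signals in high-ROS CMP without overlap, with group means of 484 and 291 (log2 difference -0.72, unadjusted p = 0.00080, adjusted p = 0.264, limma), and Kit likewise had 642 and 545. Summed signals of 8 stem and multipotent progenitor markers ran from 1544 to 1635 and from 860 to 1170, without overlap; 6 of the 8 were lower in high-ROS CMP at an unadjusted p under 0.05 and 0 passed after adjustment. Megakaryocyte markers (6 measured) ran from 2035 to 2105 and from 1430 to 1639, a sum made mostly of Pf4 (group means of 1107 and 666) and Itgb3 (812 and 685), while 3 of the 6, all with a mean signal under 50, had higher means in high-ROS CMP. Erythroblast markers (4 measured, Hba-a1 near 0) ran from 8378 to 8512 and from 6446 to 7843, with Slc4a1 at 6109 and 4985 as group means and Alas2 at 1932 and 1858. Monocyte and macrophage markers (5 measured) ran from 2921 to 3708 and from 3719 to 4122. Neutrophil markers (6 measured) ran from 45687 to 48901 and from 45612 to 47136, and B cell markers (5 measured) from 2241 to 2762 and from 2081 to 2579. T cell markers (4 measured) ran from 290.1 to 419 and from 339 to 440.2, and basophil and mast cell markers (3 measured) from 1096 to 1186 and from 1003 to 1233. In bulk RNA, a different share of such cells and a different amount of RNA per cell cannot be told apart, and their part in the ribosomal protein values was not tested. High-ROS replicate 3 stood apart in RNA quality, with the highest ratio of 3' to 5' signal of the Gapdh control probe sets.

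No ribosomal protein gene differed between the fractions past the threshold. By limma with Benjamini-Hochberg adjustment over all genes, 0 of 48 passed at an adjusted p under 0.05, where 0.0550% of all genes did (0.0165% higher and 0.0385% lower in high-ROS CMP). The smallest adjusted p of a member was 0.708, and 0 of 48 had an unadjusted p under 0.05, where 7.81% of all genes did. In high-ROS CMP 20 members were higher and 28 lower. Their median log2 difference was -0.02, beside 0.02 over all genes. Among the 3573 genes with a mean signal of at least 500 the median was also -0.02, with 45.7% higher. The 39 members with such a signal had a median of -0.02, with 38.5% higher. The sign of the median over the 48 members depended on the scaling. The main values put 41.7% of members higher, compared with 54.0% of all genes. The share of members was 58.3% after quantile normalization (median 0.02), 56.2% after scaling to the same trimmed mean (median 0.01) and 58.3% after centring on other genes of high signal (median 0.01). Over all genes it was 50.7%, 58.1% and 60.5% under these scalings, with medians of 0.0034, 0.04 and 0.05. Groups that did not overlap were seen for 4 of 48 members, 3 higher and 1 lower, where 13.4% of all genes had such groups.

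The differences were small as well as uncalled. A log2 difference under 0.1 in size was measured for 38 of 48 members, compared with 38.1% of all genes, and the largest, of Rpl12, was 0.29. For 41 of 48 members the 95% interval of the difference lay within 1.5-fold in both directions, compared with 57.1% of all genes. For all 48 it lay within 2-fold, compared with 94.5% of all genes. Genes with a high signal have narrower intervals on these arrays: among all 3573 genes with a mean signal of at least 500, 81.8% had intervals within 1.5-fold. Of the 39 members with such a signal, 38 (97.4%) lay within 1.5-fold, all but Rpl14. Signals were not matched here, with a median of 5309 for these 39 members and 993 for all 3573 genes. How far the higher share goes with the higher signal was not tested. The intervals are not adjusted for the number of genes.

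**Figure D1:**
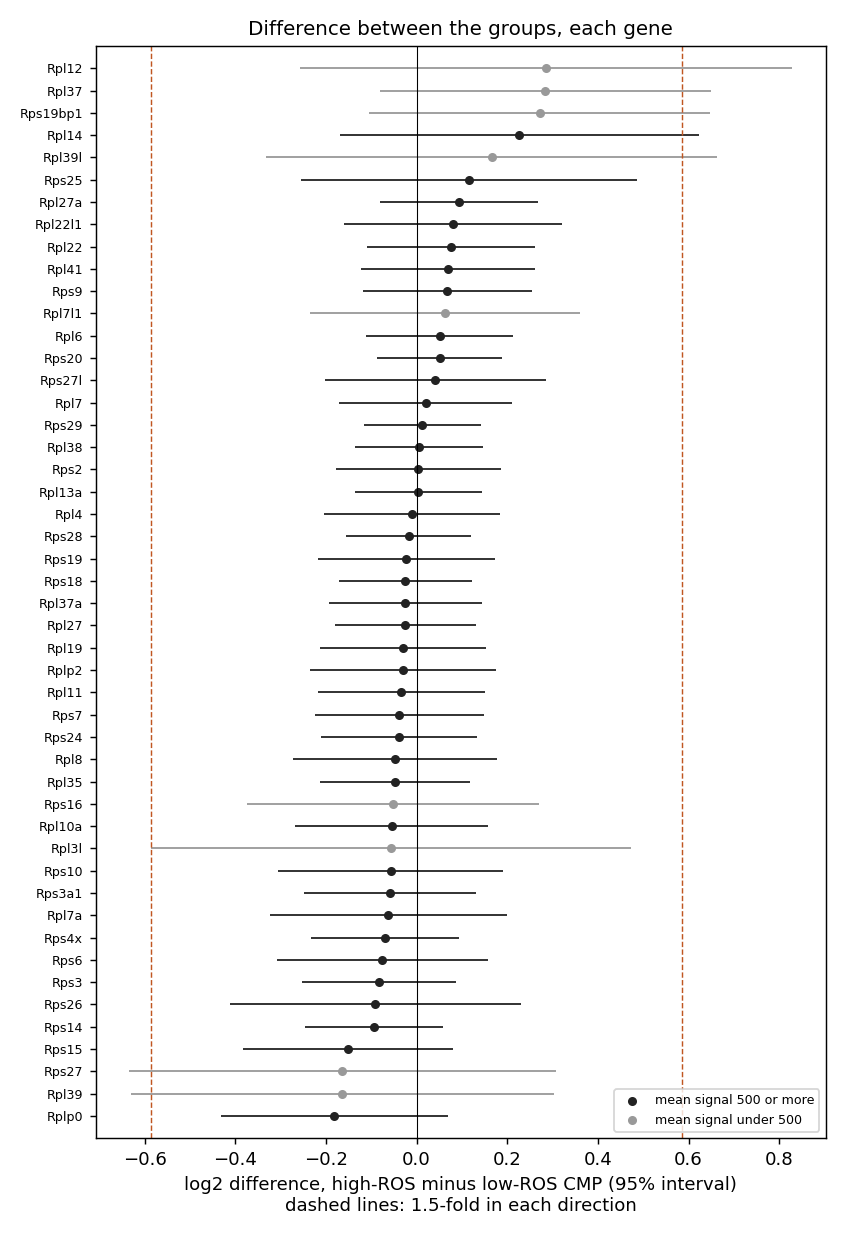
Difference between high-ROS and low-ROS CMP for each of the 48 ribosomal protein genes, on the log2(signal + 16) scale, with its 95% interval from limma (3 arrays against 3). Black genes have a mean signal of at least 500 and grey genes a lower one; every interval crosses 0, and 41 of 48 lie within the dashed lines at 1.5-fold.

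**Figure D2:**
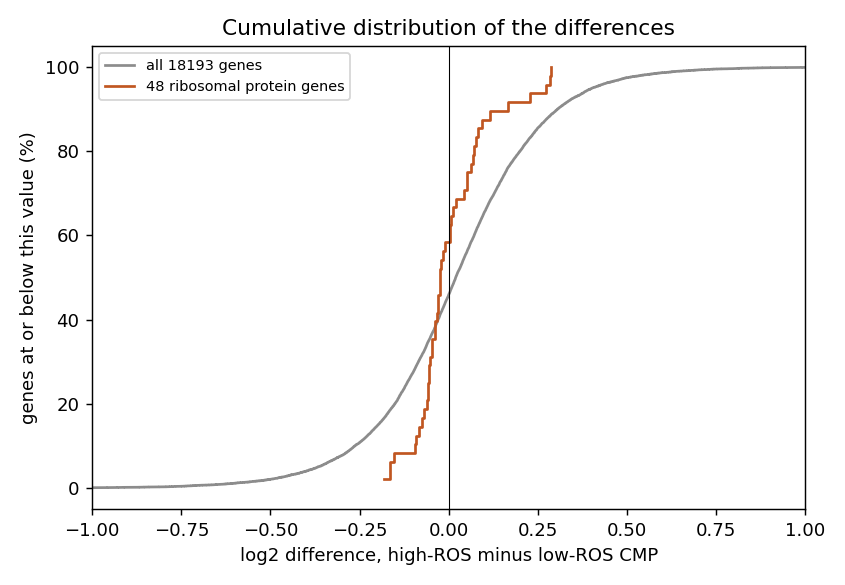
Cumulative share of genes, in percent, against the log2 difference of high-ROS minus low-ROS CMP, for all 18193 genes (grey) and the 48 ribosomal protein genes (orange). The ribosomal protein curve runs from -0.18 to 0.29 and rises around 0.

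The large subunit list held 24 members, of which 13 were higher and 11 lower in high-ROS CMP and 0 passed the threshold. The median log2 difference was 0.0045, and it was 0.03 or 0.04 under the 3 other scalings, which put 17 members higher. It was below 0 without low-ROS replicate 1 (-0.02, 8 higher), without high-ROS replicate 2 (-0.03, 10 higher) and with array weights (-0.02, 11 higher). The 24 include Rpl7l1, which is not part of the mature ribosome and is among the 13. Rpl38, known from mice in which its loss alters the axial skeleton, had signals of 8057, 8372 and 8436 on the low-ROS arrays, in order of replicate number as everywhere below, and 7984, 8601 and 8377 on the high-ROS arrays. Rpl13a, which leaves the ribosome after interferon signals to silence inflammatory mRNAs, had signals of 7738, 8000 and 8008 and of 7640, 8026 and 8151 in the same order. Both genes had overlapping groups, and both differences rounded to at most 0.01 on the log2 scale (Rpl38 0.01, SE 0.0639; Rpl13a 0.00, SE 0.0636). These 2 genes were among those with the tightest intervals, -0.14 to 0.15 and -0.14 to 0.14, each for the chosen probe set alone. Other probe sets of Rpl13a had log2 differences of 0.02, -0.19 and 0.07. The -0.19, at a mean signal of 2306, lies outside its interval.

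Rpl11 forms a particle with Rpl5 and 5S rRNA that can bind Mdm2 and stabilise p53. Its signals were 4953, 5524 and 5636 in low-ROS and 5224, 5639 and 4879 in high-ROS CMP. The low values were those of low-ROS replicate 1 and high-ROS replicate 3, so the spread within each group exceeded the difference between them (log2 difference -0.03, SE 0.0836, adjusted p = 0.952, limma). Rpl22, which binds an RNA of Epstein-Barr virus and is needed for T cell development, had signals of 4948, 5867 and 5734 in low-ROS and 5570, 6118 and 5719 in high-ROS CMP. The groups of Rpl22 overlapped, with a log2 difference of 0.08 (SE 0.0839). Rpl7 had a mean signal of 4010 ± 242 (SD, n = 3) in the low-ROS and 4068 ± 318 (SD, n = 3) in the high-ROS fraction, a difference well inside the spread.

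Among the large subunit genes with the smallest unadjusted p in the upward direction, Rpl27a had signals of 4187, 4763 and 4572 in low-ROS and 4575, 4906 and 4937 in high-ROS CMP, groups that overlapped only through high-ROS replicate 1 (log2 difference 0.09, SE 0.0793, adjusted p = 0.805). Rpl14 had 351, 582 and 481 in low-ROS and 518, 605 and 511 in high-ROS CMP (log2 difference 0.23, SE 0.180, adjusted p = 0.783). Rpl12, at the base of the stalk, had 91.6, 192 and 179 in low-ROS and 178, 181 and 190 in high-ROS CMP (log2 difference 0.29, SE 0.247, adjusted p = 0.808). The low values of Rpl14 and Rpl12 were both those of low-ROS replicate 1. Without that array the log2 difference of Rpl14 was 0.036 and that of Rpl12 was -0.015.

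Rpl39, which lines the exit tunnel, and Rpl37 stayed under a signal of 50 on every array, as did Rps27 and Rps16 of the small subunit. Their only probe set with a single symbol is near background, where the median over all probe sets lay between 40.4 and 42.5 on the 6 arrays, so these signals give no level of the transcripts. Rpl37 had the smallest unadjusted p of all 48 (0.115), from signals of 12.7, 8.27 and 12.9 in low-ROS and 20.4, 13.4 and 18 in high-ROS CMP. The groups did not overlap, but all 6 values are near background. The log2 differences were -0.16 for Rpl39 (SE 0.212), -0.16 for Rps27 (SE 0.214) and -0.05 for Rps16 (SE 0.146).

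**Figure D3:**
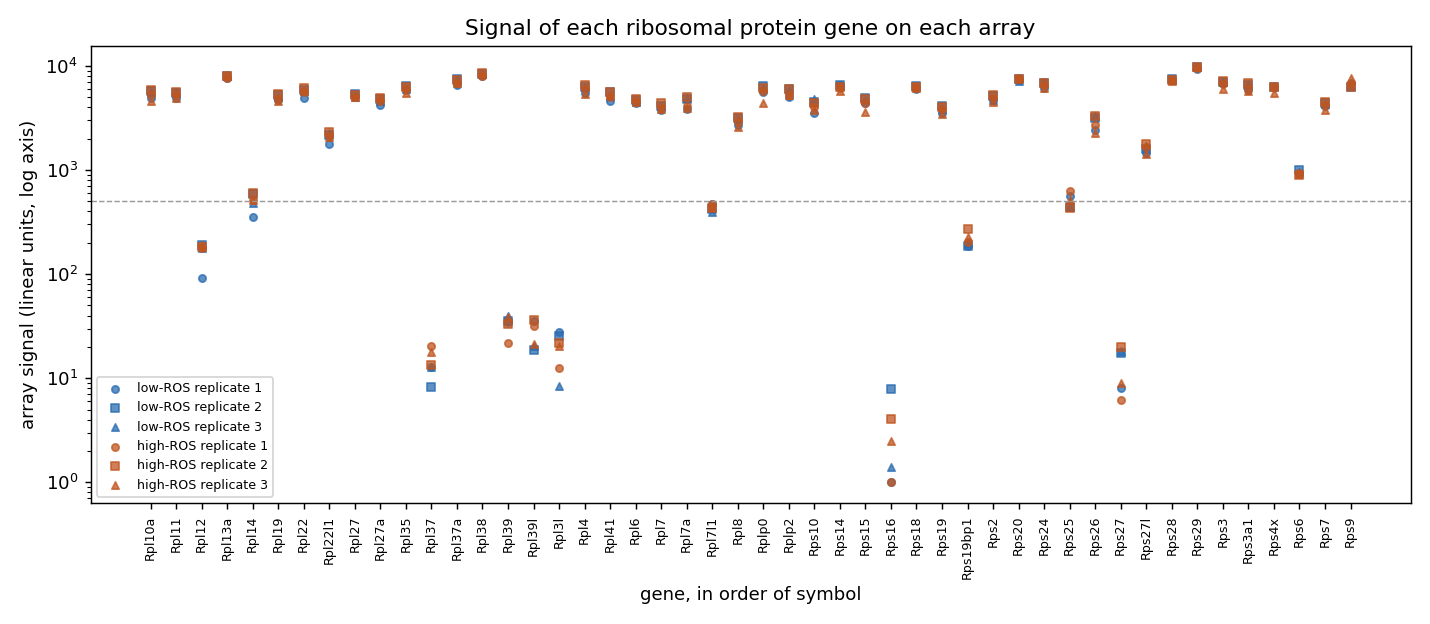
Signal of each of the 48 ribosomal protein genes (x axis, in order of symbol) on each of the 6 arrays (y axis, deposited linear signal on a log axis), low-ROS CMP in blue and high-ROS CMP in orange. The dashed line marks a signal of 500; 39 genes have a mean above it, the points of the groups lie on each other for most genes, and 6 genes stay under 50. Signals of different probe sets are not comparable as amounts.

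The small subunit list held 22 members, of which 7 were higher and 15 lower in high-ROS CMP, 0 past the threshold. The median log2 difference was -0.04, and under the 3 other scalings it was between -0.0081 and -0.00024, with 10 or 11 members higher. Without high-ROS replicate 3 it was -0.0030, with 10 higher. A fit with the log2 ratio of 3' to 5' Gapdh signal as a covariate turned the direction, to 17 higher and 5 lower with a median of 0.06. The ratio was highest on high-ROS replicates 3 and 1, so here and below this fit cannot fully separate it from the fraction. The 22 include Rps19bp1, which is no ribosomal protein and is among the 7. Rps14, the gene whose lost copy underlies the anaemia of the human 5q- syndrome, was the only member with groups that did not overlap in the downward direction, a pattern of 5.32% of all genes. Its signals were 6495, 6520 and 6441 in low-ROS and 6179, 6327 and 5726 in high-ROS CMP. The difference was small (log2 difference -0.09, SE 0.0693, adjusted p = 0.761), and its interval ran from -0.25 to 0.06. Without high-ROS replicate 3 it was -0.05. A second probe set of Rps14 had a log2 difference of -0.14 (unadjusted p = 0.256).

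Rps20 showed the opposite, with 7336, 7412 and 7116 in low-ROS and 7528, 7541 and 7580 in high-ROS CMP. Every high-ROS array was above every low-ROS array, a pattern of 8.04% of all genes, by a log2 difference of 0.05 (SE 0.0625, adjusted p = 0.882). With the mean of all its probe sets it was -0.14. Rps3, which sits at the mRNA entry channel, had 6838, 6986 and 7040 in low-ROS and 6692, 7087 and 5968 in high-ROS CMP. Rps15, needed for export of the small subunit from the nucleus, had 4444, 4892 and 4741 and then 4395, 4781 and 3570. For Rps3 and Rps15 alike, high-ROS replicate 3 was the low array and the other high-ROS arrays lay close to the low-ROS ones (log2 differences -0.08, SE 0.0770, and -0.15, SE 0.105). Without high-ROS replicate 3 the values were -0.01 and -0.03.

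Rps9, also at the entry channel, ran against this pattern. Its signal was highest on high-ROS replicate 3, at 7622, compared with 6737 and 6259 on the other high-ROS arrays and 6915, 6229 and 6477 on the low-ROS arrays (log2 difference 0.07, SE 0.0846). Its other probe sets had -0.17 and -0.16. Rps6, the subunit protein phosphorylated by S6 kinase downstream of mTOR, had 944, 997 and 949 in low-ROS and 945, 888 and 908 in high-ROS CMP. The groups of Rps6 overlapped by a single array (log2 difference -0.08, SE 0.106, adjusted p = 0.899). Rps4x, an X-linked member, had 6218, 6330 and 6417 in low-ROS and 6236, 6312 and 5545 in high-ROS CMP, with high-ROS replicate 3 again the low array. Rps29, a zinc-binding protein of the subunit head, had the narrowest range of the genes with a mean signal of at least 500. Its signals ran from 9439 to 9713 in low-ROS and from 9588 to 9825 in high-ROS CMP, a highest array 1.04 times the lowest.

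Both measured P stalk genes had lower means in high-ROS CMP, and neither passed; with the Gapdh ratio as a covariate both were higher, and Rplp2 was higher after centring on other genes of high signal and in 4 of the 6 fits without 1 array. Rplp0, the scaffold protein of the stalk and a common reference gene in PCR assays, had signals of 5661, 6371 and 6164 in low-ROS and 5727, 6081 and 4373 in high-ROS CMP. High-ROS replicate 3 stood apart, while the other high-ROS arrays fell within the low-ROS range. Its log2 difference of -0.18 (SE 0.114, adjusted p = 0.726) was the lowest of the 48, and without high-ROS replicate 3 it was -0.04. Rplp2 had 4975, 6039 and 5917 in low-ROS and 5272, 6019 and 5253 in high-ROS CMP (log2 difference -0.03, SE 0.0932).

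Of the genes mutated in Diamond-Blackfan anaemia, 11 of 18 listed were measured, and 0 of 11 passed. In high-ROS CMP 1 was higher and 10 lower, with a median log2 difference of -0.04, but 4 or 5 were higher under the 3 other scalings, with medians between -0.0080 and -0.0012. The direction turned without high-ROS replicate 3, to 7 higher and 4 lower (median 0.0059), and under the Gapdh ratio covariate, to 9 higher and 2 lower (median 0.09). Rps19, the gene most often mutated in the disease, had signals of 3550, 4115 and 3818 in low-ROS and 3828, 4003 and 3472 in high-ROS CMP. Its difference of -0.02 on the log2 scale (SE 0.0892, adjusted p = 0.973) had an interval from -0.22 to 0.17 and was above 0 under each of those scalings. Rps26 had 2449, 3127 and 3285 in low-ROS and 2734, 3336 and 2278 in high-ROS CMP, with a wider interval, -0.41 to 0.23. Its log2 difference was -0.09, and without high-ROS replicate 3 it was 0.04. For Rps24, Rps10 and Rps7 the log2 differences were -0.04 (SE 0.0780), -0.06 (SE 0.113) and -0.04 (SE 0.0848), and all 3 had overlapping groups.

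Members that are paralogs or carry a like name numbered 6, of which 5 were higher and 1 lower in high-ROS CMP, also under the 3 other scalings, and 0 passed. Under the Gapdh ratio covariate, or with the mean of all probe sets, 4 were higher and 2 lower. Dropping high-ROS replicate 2 also gave 4 and 2, as did dropping low-ROS replicate 1. All 6 were higher once low-ROS replicate 2 was dropped, and likewise once high-ROS replicate 1 was. Rpl22l1, a paralog whose level is linked to that of Rpl22, had signals of 1769, 2165 and 2259 in low-ROS and 2137, 2306 and 2079 in high-ROS CMP, with a log2 difference of 0.08 (SE 0.110) next to the 0.08 of Rpl22. Rps27l, a paralog of Rps27 that p53 induces, had 1457, 1591 and 1682 in low-ROS and 1682, 1762 and 1435 in high-ROS CMP (log2 difference 0.04, SE 0.111). The groups of both paralogs overlapped.

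The muscle paralog Rpl3l and the testis paralog Rpl39l were near background on every array. Rpl3l ranged from 8.36 to 27.7 and Rpl39l from 18.6 to 35.9, and their log2 differences of -0.06 (SE 0.240) and 0.17 (SE 0.226) compare signals of that size. Rpl7l1, a nucleolar protein of large subunit assembly that is not part of the mature ribosome, had a mean signal of 428 ± 37.1 (SD, n = 3) in the low-ROS and 447 ± 21.1 (SD, n = 3) in the high-ROS fraction. Rps19bp1 is a partner of Rps19 and of the deacetylase Sirt1 and no ribosomal protein. It had signals of 185, 188 and 198 in low-ROS and 203, 272 and 229 in high-ROS CMP, without overlap (log2 difference 0.27, SE 0.171, adjusted p = 0.726).

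Member values differed more between arrays than between fractions. Over the 39 members with a mean signal of at least 500, the mean log2(signal + 16) was 12.11 ± 0.0777 (SD, n = 3) for the low-ROS and 12.09 ± 0.0796 (SD, n = 3) for the high-ROS arrays. The low-ROS arrays, in order of replicate number, had 12.02, 12.16 and 12.14, and the high-ROS arrays 12.10, 12.17 and 12.01. Low-ROS replicate 1 or high-ROS replicate 3 held the lowest signal for 33 of the 39, compared with 43.2% of all genes. A replicate 2 array held the highest for 30 of the 39, compared with 30.5% of all genes.

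A measure of RNA quality moved with this pattern in part. The 5' Gapdh control probe set, whose signal falls when RNA or labelling is less complete, had signals of 1566, 1953 and 2057 in low-ROS and 1457, 1846 and 1031 in high-ROS CMP. It was lowest on high-ROS replicate 3, but low-ROS replicate 1 was above high-ROS replicate 1. The ratio of 3' to 5' Gapdh signal was 3.19, 2.84 and 2.54 in low-ROS and 3.57, 3.0 and 4.53 in high-ROS CMP. The trimmed mean signal of the arrays lay between 181, on high-ROS replicate 3, and 198. With the log2 Gapdh ratio as a covariate, 39 of 48 members were higher in high-ROS CMP. Their median log2 difference was then 0.10, beside 0.01 over all genes, 0 passed, and 1 had an unadjusted p under 0.05. The highest ratios, 3.57 and 4.53, were both of high-ROS arrays, so this fit cannot fully separate the ratio from the fraction. The part of RNA quality in the member values was not tested beyond this fit. Leaving out low-ROS replicate 1 left 12 members higher and a median of -0.06, and leaving out high-ROS replicate 3 left 29 higher and a median of 0.01.

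**Figure D4:**
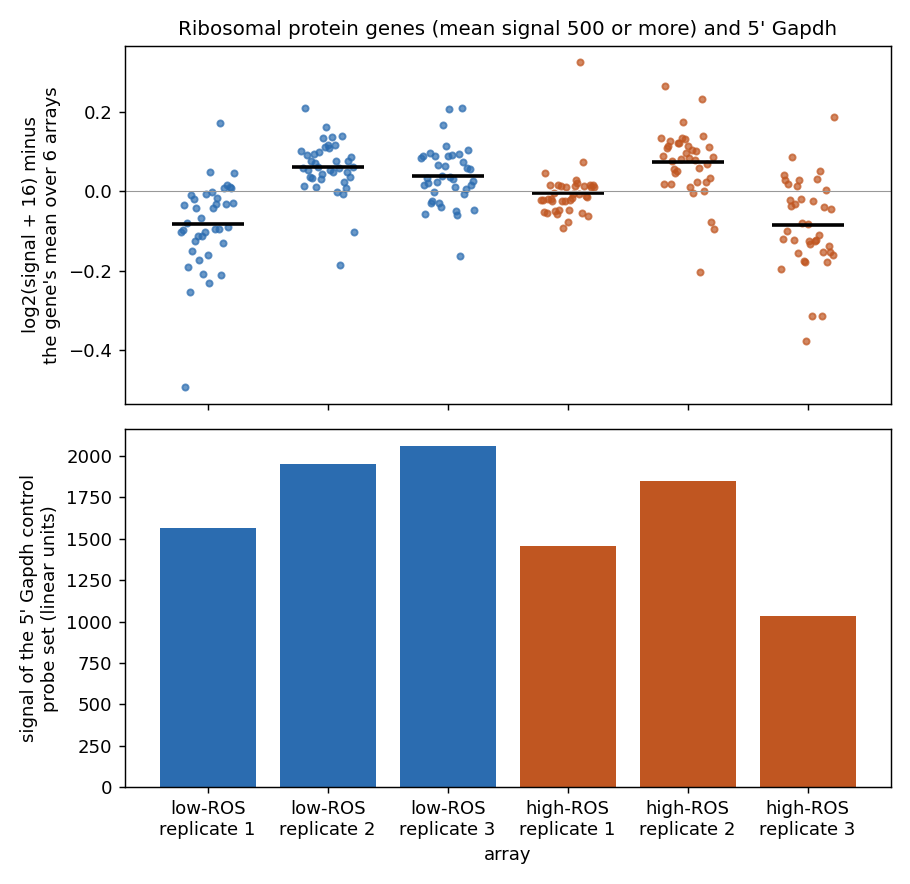
Top: log2(signal + 16) of each of the 39 ribosomal protein genes with a mean signal of at least 500, minus the gene's mean over the 6 arrays, with the mean over genes as a bar; low-ROS arrays are blue and high-ROS arrays orange. Bottom: linear signal of the 5' Gapdh control probe set, which was lowest, at 1031, on high-ROS replicate 3; low-ROS replicate 1 and high-ROS replicate 3 have the lowest member means.

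Other probe sets of the same genes gave the same size of difference where their signal was high. The 48 genes have 103 probe sets with a single symbol, and 23 genes have more than 1. With each probe set tested over all 45037, 0 of 103 passed. The 74 with a mean signal of at least 500 had log2 differences from -0.24 to 0.23, and 0 of them had an unadjusted p under 0.05. The 29 with a lower signal ranged from -0.67 to 0.86. Of 19 genes with several probe sets of at least 500, 16 had the same sign on all, and Rpl13a, Rpl7 and Rps9 did not. The range of log2 differences within these 19 genes had a median of 0.07 and was largest, 0.26, in Rpl13a.

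Probe sets of lower signal disagreed more with the main one. Rpl41, the smallest ribosomal protein, had log2 differences of 0.07 and 0.09 on its probe sets with mean signals of 5206 and 3867, but 0.71 (unadjusted p = 0.0609) and 0.86 (unadjusted p = 0.0274) on those with 101 and 96. Rps20 had 0.05 on its probe sets at 7419 and 7414 and -0.0065 on the one at 244 and -0.67 (unadjusted p = 0.0297) on the one at 76.2. In neither gene did a probe set pass after adjustment by limma.

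**Figure D5:**
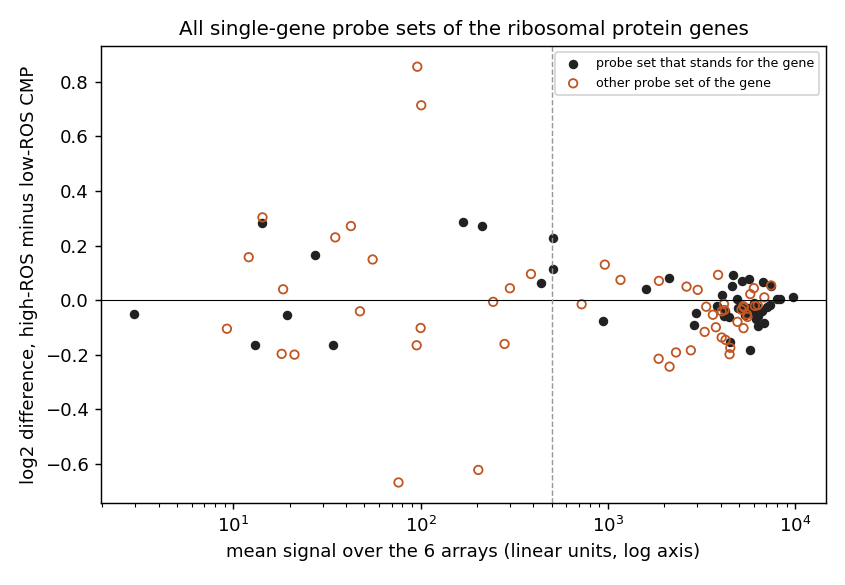
Log2 difference of high-ROS minus low-ROS CMP against mean signal (log axis) for the 103 single-symbol probe sets of the 48 genes. Filled points stand for the gene and open points are its other probe sets; right of the dashed line at 500 the values run from -0.24 to 0.23, and left of it from -0.67 to 0.86.

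Genes around the ribosomal proteins were not called either. Of the ribosomal proteins whose symbols follow another form, Rpsa, a small subunit protein also known as a laminin receptor, had a log2 difference of 0.07 (SE 0.0670), and Fau, made as a fusion with a ubiquitin-like protein, had -0.09 (SE 0.0782; -0.04 without high-ROS replicate 3). Translation factors and other mRNAs with a terminal pyrimidine run had 9 members higher and 7 lower of 16 measured, with a median log2 difference of 0.01, 0 past the threshold and 0 with an unadjusted p under 0.05. Those with the smallest p were Hnrnpa1, an RNA-binding protein of splicing, at -0.20 (SE 0.113; -0.06 without high-ROS replicate 3 and 0.06 under the Gapdh ratio covariate), and Btf3, a subunit of the nascent polypeptide complex, at 0.15 (SE 0.0910).

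Regulators of ribosomal protein synthesis had 5 members higher and 8 lower of 13 measured, a median of -0.04 and 0 past the threshold. Eif4ebp1, the translation repressor that mTOR inactivates, had 313 and 527 as group means in low- and high-ROS CMP, with overlapping groups (log2 difference 0.70, SE 0.226, unadjusted p = 0.0100, adjusted p = 0.558). With 1 array left out the difference ran from 0.49, without high-ROS replicate 3, to 0.93, without high-ROS replicate 2. It was 0.45 under the Gapdh ratio covariate, 0.23 with the mean of all its probe sets and 0.21 with probe sets ending plainly in _at. Gabpa, the ETS factor whose core was searched above, had group means of 909 and 622, without overlap (log2 difference -0.61, SE 0.234, unadjusted p = 0.0250, adjusted p = 0.587). Its lowest signal was the 368 of high-ROS replicate 3, and the log2 difference was -0.28 without that array and -0.04 under the Gapdh ratio covariate. Myc, which drives ribosome production, had -0.03 (SE 0.201). Among escorts of single ribosomal proteins, 5 were higher and 4 lower of 9, and 0 passed. Grwd1, which accompanies Rpl3, had group means of 277 and 399, without overlap, a pattern of 8.04% of all genes (log2 difference 0.49, SE 0.164, adjusted p = 0.568). Its difference was 0.35 without high-ROS replicate 3, 0.27 under the Gapdh ratio covariate and 0.58 with the mean of all its probe sets. Aamp, the counterpart of a yeast escort of Rpl10, had -0.30 (SE 0.186, adjusted p = 0.726), and -0.14 without low-ROS replicate 1.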

How the data were processed

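RNA from the sorted fractions was amplified and labelled with biotin (NuGEN Ovation), per the labels' protocols. The authors deposited a linear intensity for each probe set of every array, and 0 value columns were left unused. Probe summary and scaling are not given in the sources used here. Of 45101 probe sets, 64 were controls, 34945 had 1 symbol, 932 several and 9160 none listed; only the first kind was used, named from the platform annotation, with the probe set of the highest mean log2(signal + 16) standing for each gene.

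The 3 high-ROS arrays were set against the 3 low-ROS arrays over all 18193 genes with limma 3.58.1 in R 4.3.3 (lmFit, eBayes with a mean-variance trend, 2-sided, Benjamini-Hochberg, threshold 0.05). The steps were tested on simulated data with planted changes larger than any member difference and no pattern shared by the genes of an array. That simulation does not bear on differences as small as those of the members. Figures used Python 3.11.15 and matplotlib 3.10.9. The members and lists were chosen with earlier results of these data known, so no list was tested. Named genes were set by rule: the 8 members with the smallest unadjusted p in each direction, the 3 with the highest and 3 with the lowest signal, fixed members of the stalk, 5S particle, anaemia and paralog groups, and the top 2 genes of each other list outside the cell type markers. Myc, Rpl41, Rps18, Rpl35 and the markers named, single values of list genes without 1 array or under another setting, and the bounds of 500, 1.5-fold and 2-fold were chosen after values were seen. Replicate numbers were taken as not pairing samples in the main fit, a choice that these data do not settle. Correlations of deviations between same-numbered arrays were 0.12, 0.10 and 0.00 over all genes. Between arrays of different numbers they ran from -0.13 to 0.06, all below the 0.12 and the 0.10. Over the 39 members with a mean signal of at least 500, same-numbered arrays had 0.60, 0.63 and -0.38. Arrays of different numbers then ran from -0.77 to 0.65, so the members do not settle whether numbers pair samples. Alternatives covered the trend, filter, scaling, probe set choice, block, weights, covariate, pseudocount and each array left out.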

Additional observations from a re-analysis of the deposited data

How the results depend on the processing

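In each of 19 alternatives, 0 members passed the threshold and the smallest adjusted p of a named member was 0.454 (limma). Of 33 named members, 7 kept their sign in every alternative that held them, and some alternatives lacked some members. Fits that change only the trend, the filter or the block cannot change a sign. The count of all genes called was 3 higher and 7 lower. It was 0 and 0 with no mean-variance trend, 5 and 11 over genes above the median gene, 13 and 17 with array weights, 0 and 3 with the Gapdh covariate, 0 and 4 with a pseudocount of 64, and 0 and 2 with probe sets ending plainly in _at. It was 1 higher after quantile normalization and 6 higher after centring on other bright genes. The labels do not say whether same-numbered arrays share more than the number. With the replicate block, the count was 0 higher and 4 lower. Each replicate number holds 1 array of each fraction, so the block cannot change a log2 difference. The median over members was thus -0.02 as before, and no member call changed with the block. Without both low-ROS replicate 1 and high-ROS replicate 3, chosen after seeing the data, the count was 0 and 4. Leaving out any 1 array gave 0 higher and 1 to 6 lower, 6 without high-ROS replicate 3 and at most 2 without any of the others.

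Members higher numbered 20 of 48, 10 of the 25 that have a probe set ending plainly in _at, 39 with the Gapdh covariate (median 0.10), and 12 to 29 when 1 array was left out (median -0.06 to 0.01). Signs changed for single members, none of them called, and the cause was not tested. With the Gapdh covariate the log2 differences were -0.087 for Rps9, 0.073 for Rplp0, 0.067 for Rps15, 0.043 for Rps3, 0.030 for Rps4x, 0.18 for Rps27, 0.0036 for Rps16, 0.12 for Rplp2, 0.11 for Rpl11, 0.099 for Rps19, 0.086 for Rps24, 0.26 for Rps26, 0.15 for Rps10, 0.090 for Rps7 and -0.0045 for Rpl7l1. With the mean of all probe sets they were -0.14 for Rps20, -0.089 for Rps9, 0.020 for Rps3, 0.12 for Rps4x, 0.098 for Rps6, -0.024 for Rpl13a and -0.020 for Rpl7l1. Plain _at probe sets gave -0.67 for Rps20 and -0.16 for Rps9. Array weights gave -0.021 for Rpl38 and -0.023 for Rpl13a. Centring on other bright genes gave 0.0018 for Rplp2 and 0.010 for Rps19. Quantile normalization gave 0.016 for Rps19 and 0.021 for Rps7. Trimmed-mean scaling gave 0.0084 for Rps19. Without both arrays named above they were -0.041 for Rpl12, -9.7e-05 for Rps29, -0.020 for Rpl38, -0.032 for Rpl13a, 0.0072 for Rps7 and 0.050 for Rpl3l. With 1 array left out at a time the ranges were -0.091 to 0.017 for Rpl11, -0.015 to 0.46 for Rpl12, -0.015 to 0.031 for Rpl13a, -0.00063 to 0.12 for Rpl22, -0.026 to 0.15 for Rpl22l1, -0.019 to 0.035 for Rpl38, -0.32 to 0.098 for Rpl3l, -0.042 to 0.065 for Rpl7, -0.12 to 0.020 for Rplp2, -0.19 to 0.032 for Rps10, -0.14 to 0.10 for Rps16, -0.075 to 0.035 for Rps19, -0.096 to 0.0059 for Rps24, -0.23 to 0.043 for Rps26, -0.018 to 0.13 for Rps27l, -0.00092 to 0.021 for Rps29, -0.091 to 0.031 for Rps7 and -0.0090 to 0.13 for Rps9. Depth is not given for arrays; members under a signal of 50 are near background, so their differences say little about the transcripts.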

Other observations

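A further 110 probe sets carry several gene symbols, at least 1 of them of a cytosolic ribosomal protein, and 31 such symbols are measured in no other way. They were used in no comparison of genes, because their signal cannot be assigned to 1 gene. By limma over all 45037 probe sets, 0 of the 110 passed, 33 were higher and 77 lower in high-ROS CMP, and their median log2 difference was -0.03, beside 0.00 over all probe sets. An unadjusted p under 0.05 was reached by 4 of them (3.64%), 3 higher and 1 lower, compared with 6.96% of all probe sets.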
